A study of Homo sapiens with 14 samples.

Results

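The growth switch mTORC1 and the proteins that hold it back were followed through 10 genes, chosen by symbol: DDIT4, DDIT4L, TSC1, TSC2, DEPTOR, SESN3, RHEB, RRAGC, RRAGD and FNIP1. All 10 were found among the 23106 gene symbols of the counts. They were measured in PC3, an established line of human prostate cancer cells, and in HCT116, which derives from a colorectal carcinoma. Cells of each line were incubated for 16 h in normoxia (21% O2) or in hypoxia (0.5% O2), and polyadenylated RNA was sequenced in 14 libraries, 4 for each oxygen level of PC3 and 3 for each of HCT116. The labels give no engineered allele, both conditions of a line shared one medium, and the lines differed in medium as well as in origin. A difference between PC3 and HCT116 therefore cannot be told apart from a difference between their media, and each line stands for a single tumour.

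mTORC1 is the protein kinase complex at the lysosome that turns on protein synthesis and growth when growth factors, energy and amino acids are present. It needs the signals of RHEB, a small GTPase that activates the kinase directly, and of the Rag GTPases, pairs of RRAGA or RRAGB with RRAGC or RRAGD, which bring the kinase to the lysosome. TSC1 and TSC2 form the complex that switches RHEB off, DDIT4 (also called REDD1) and its relative DDIT4L (REDD2) act through that complex, DEPTOR binds the kinase and restrains it, and SESN3 belongs to the sestrins, which act on the Rag arm when amino acids are short. FNIP1 is the partner of folliculin, which acts on the nucleotide state of RRAGC and RRAGD. DDIT4 is known as a target of the hypoxia-inducible factors (HIF). The set thus holds brakes (DDIT4, DDIT4L, TSC1, TSC2, DEPTOR and SESN3) together with the switches on which they act.

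Because HIF binds short DNA elements with the core ACGTG or GCGTG, the 250 bases before the transcription start were read from RefSeq (GRCh38.p14) and searched on both strands for ACGTG and GCGTG. The palindrome CACGTG, bound by other factors, contains ACGTG on either strand and is counted in that motif on each. An entry was found for DDIT4, DDIT4L, TSC1, TSC2, SESN3, RHEB, RRAGC and FNIP1, and none for RRAGD. The window of DEPTOR is not reported here. Among 35116 promoters, 18.5% held ACGTG, 32.2% held GCGTG, 43.2% held either and 6.35% held CACGTG. Shown are DDIT4, the member with the largest hypoxic rise, its paralogue DDIT4L, and FNIP1, whose window held the most matches, each 5′ to 3′ on the strand of the gene with the matches in capitals (chr10:72273674-72273923 on the plus strand, chr4:100190469-100190718 on the minus strand and chr5:131797018-131797267 on the minus strand).
DDIT4: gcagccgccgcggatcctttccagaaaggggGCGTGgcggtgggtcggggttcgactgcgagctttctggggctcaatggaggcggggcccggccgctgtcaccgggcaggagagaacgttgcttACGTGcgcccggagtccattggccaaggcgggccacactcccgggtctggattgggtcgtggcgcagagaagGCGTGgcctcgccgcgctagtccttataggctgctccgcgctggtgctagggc
DDIT4L: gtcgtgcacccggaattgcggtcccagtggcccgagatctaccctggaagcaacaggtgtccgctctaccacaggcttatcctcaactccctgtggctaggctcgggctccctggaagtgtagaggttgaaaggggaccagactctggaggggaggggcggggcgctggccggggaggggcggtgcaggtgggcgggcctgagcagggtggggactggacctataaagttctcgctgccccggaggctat
FNIP1: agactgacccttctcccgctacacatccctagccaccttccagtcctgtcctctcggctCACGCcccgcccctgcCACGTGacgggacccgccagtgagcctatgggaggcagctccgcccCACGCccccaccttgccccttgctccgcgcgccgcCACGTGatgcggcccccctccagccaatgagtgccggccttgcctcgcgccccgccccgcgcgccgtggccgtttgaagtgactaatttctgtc
The DDIT4 window held 3 matches, with ACGTG beginning 125 bases and GCGTG 219 and 53 bases before the start, and 7.76% of all promoters held at least as many. The FNIP1 window held 6 matches, of which 4 belong to 2 copies of CACGTG, and 0.646% of promoters held at least as many. TSC2 (in the first of its windows) and RRAGC held a single CACGTG, RHEB held 1 ACGTG, and these letters were not in the windows of DDIT4L, TSC1 and SESN3. A match is a description of the letters and no evidence of binding.

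Libraries held between 71228454 and 150630928 counts, and the hypoxic PC3 libraries were the shallowest. The summed level of 6 prostate markers was 101 to 130 CPM (counts per 1000000 after TMM scaling) in PC3 and 16.4 to 19.4 CPM in HCT116, although KLK2 and KLK3 were at or under 3 counts in every library of both lines. The summed level of 6 colorectal markers was 31.4 to 36.7 CPM in HCT116 and 11.3 to 15.6 CPM in PC3, while CDX1 and CDH17 were at or under 3 counts in HCT116. Normoxic and hypoxic PC3 libraries with the same replicate number deviated together, most in replicate 1 and least in replicate 3. PC3 values with the replicate number as a block are therefore given where they change the call of a member or of a gene whose change in hypoxia is described.

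In the fits without the block, DDIT4 rose in hypoxia in both lines, and DDIT4L and RRAGD rose in HCT116. With the block RRAGD, RHEB and FNIP1 were called higher in PC3 as well. By edgeR's quasi-likelihood test (adjusted p under 0.05 over all genes tested), 1 of the 9 members tested in PC3 was higher in hypoxia and none was lower, beside 6.03% and 5.29% of all 14309 genes tested. In HCT116, 3 of 10 members were higher and none lower, beside 14.6% and 11.3% of 14120 genes. At an unadjusted p under 0.05, 0 members were lower in either line, and 0 with DESeq2. The median log2 fold change of the members was 0.19 in PC3 and -0.02 in HCT116, against 0.00 over all genes in each line. With the block, 4 of the 9 PC3 members were higher and none lower, beside 14.9% and 13.6% of all genes. In bulk RNA, a change in the share of cells that express a gene and a change in RNA per cell cannot be told apart.

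**Figure D1:**
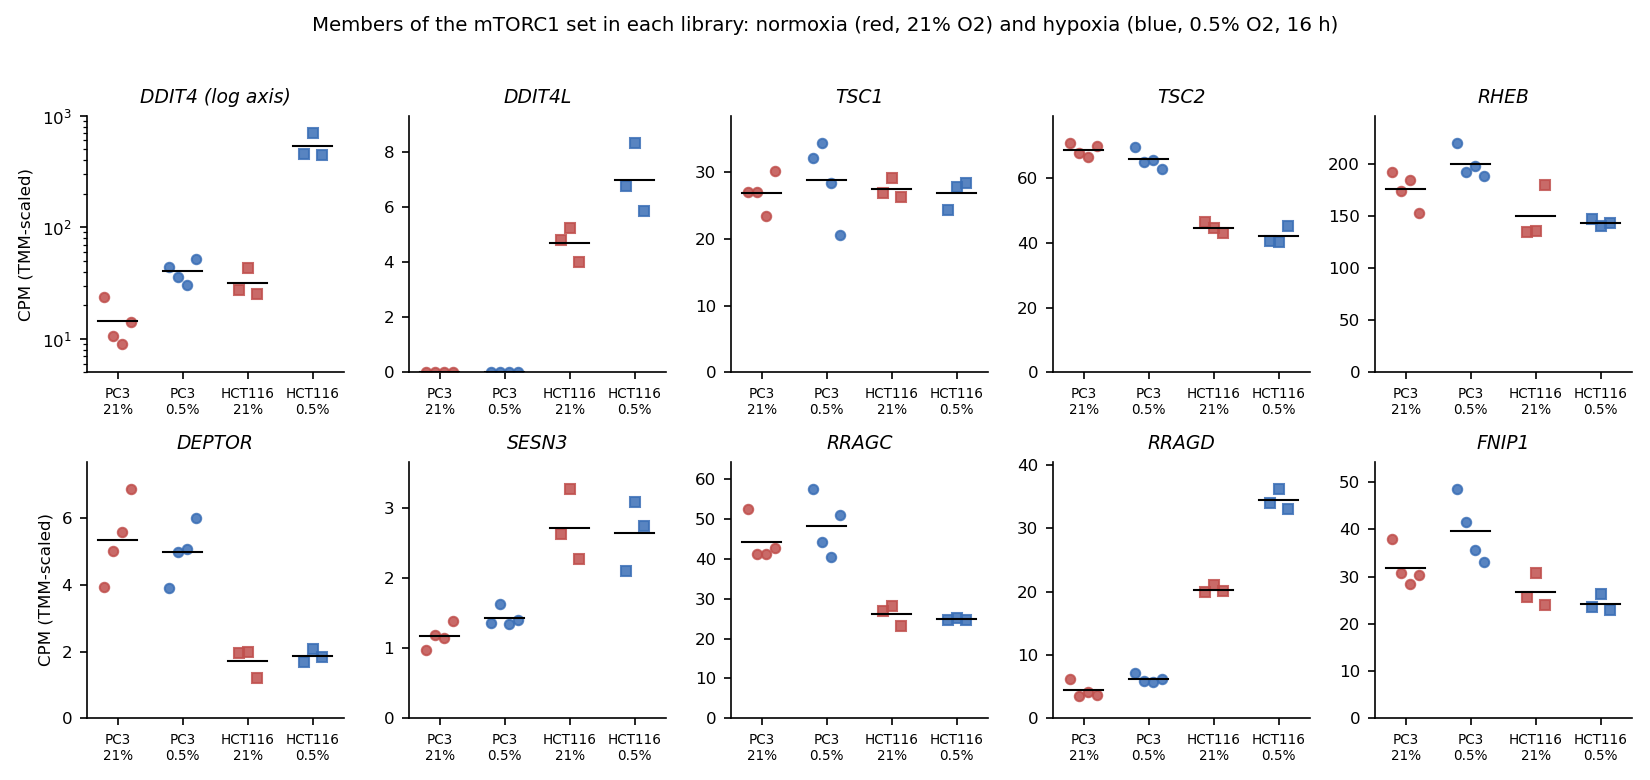
TMM-scaled CPM of each member (vertical axes, from 0 except for the log axis of DDIT4) in every library, by line and oxygen level, with points for libraries and black bars for group means. DDIT4 lies higher in every hypoxic library than in any normoxic library of the same line, RRAGD and DDIT4L do so in HCT116, and DDIT4L is at 0 in PC3.

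DDIT4 (GRCh37, chr10:74033678-74035794, plus strand, 3 exons) stood at 23.8, 10.5, 9.04 and 14.2 CPM in the normoxic PC3 libraries and at 44.0, 36.0, 30.5 and 51.9 CPM in the hypoxic ones. No hypoxic PC3 library reached down to the highest normoxic one, which was replicate 1. The rise was 1.50 on the log2 scale (SE 0.30, 2.82-fold, edgeR adjusted p = 0.0142), the 63rd largest of the 14309 genes tested. Taken by replicate number, hypoxic over normoxic CPM was 1.85, 3.43, 3.37 and 3.64 for replicates 1 to 4. Replicate 1 thus had the smallest ratio, from the highest normoxic level. With the block the rise was 1.57 (SE 0.16, adjusted p = 0.00123 by edgeR). The call was lost when normoxic replicate 2 was left out (1.37, edgeR adjusted p = 0.0534), and without normoxic replicate 1 the rise was 1.86.

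In HCT116, DDIT4 stood at 27.4, 42.7 and 25.1 CPM in normoxia and at 452, 696 and 444 CPM in hypoxia. Replicate 2 was the highest library in both conditions, and the conditions lay far apart. DDIT4 rose by 4.08 on the log2 scale (SE 0.23, 16.9-fold, edgeR adjusted p = 3.17e-07), which ranked 6 among 14120 genes by size of rise. Hypoxic over normoxic CPM was 16.5, 16.3 and 17.7 for replicates 1 to 3, a narrower range than in PC3. Of every 100000 counts of a hypoxic HCT116 library, 42.9, 65.6 and 42.4 fell on DDIT4, which placed it at ranks 356, 198 and 350 of the 23106 genes by count. In the hypoxic PC3 libraries the ranks were 5102, 5866, 6367 and 4570.

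The rise of DDIT4 differed between the lines. The log2 fold change in PC3 less that in HCT116 was -2.57 (interaction, SE 0.42, edgeR adjusted p = 0.00476), and it was the only member called among the 9 with counts in both lines, beside 2.32% of the 15493 genes tested. DDIT4 was already lower in PC3 than in HCT116 in normoxia, at 14.4 ± 6.65 CPM (SD, n = 4) against 31.7 ± 9.57 CPM (SD, n = 3), a log2 difference of -1.14 (SE 0.29, adjusted p = 0.00225 by edgeR). In hypoxia the means were 40.6 ± 9.34 and 531 ± 143 CPM and the log2 difference was -3.71 (SE 0.31, edgeR adjusted p = 2.18e-08). The ranges of hypoxic PC3, 30.5 to 51.9 CPM, and of normoxic HCT116, 25.1 to 42.7 CPM, overlapped.

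DDIT4L (chr4:101107027-101111939, minus strand) had 0 counts in all 8 PC3 libraries, which allows a level of up to 3 counts, or 0.0230 to 0.0447 CPM in these libraries. In HCT116 it stood at 4.80, 5.24 and 3.99 CPM in normoxia and at 6.75, 8.32 and 5.84 CPM in hypoxia. Every hypoxic HCT116 library lay above every normoxic one. The rise was 0.59 on the log2 scale (SE 0.14, 1.51-fold, edgeR adjusted p = 0.0110), and in one fit over all 14 libraries it missed the threshold (adjusted p = 0.0901). Against the highest PC3 limit, the HCT116 mean was at least 161-fold higher in normoxia and at least 156-fold higher in hypoxia. The hypoxic changes of the lines cannot be compared for DDIT4L, since it was not detected in PC3. The limits cover counting error only, and whether the 0 counts in PC3 come from the line or from the counting was not tested.

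The paralogues therefore moved by very different amounts in HCT116. DDIT4L made up 9.26% ± 1.50 (SD, n = 3) of the counts per transcript length of both paralogues in normoxia and 0.888% ± 0.0993 in hypoxia. All 3 normoxic libraries were above all 3 hypoxic ones, and the exact two-sided permutation test gave p = 0.10, the smallest that 3 against 3 libraries can give (adjusted p = 0.167 over 5 tests of shares).

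TSC1 and TSC2, through which DDIT4 acts, did not pass the test of hypoxia in either line. TSC1 (chr9:135766735-135822261, minus strand) was at 27.1, 27.0, 23.4 and 30.1 CPM in normoxic PC3 and at 32.0, 34.3, 28.3 and 20.5 CPM in hypoxic PC3, and hypoxic replicate 4 was the lowest of the 8. In HCT116 it was at 26.9, 29.0 and 26.3 CPM in normoxia and at 24.3, 27.7 and 28.4 CPM in hypoxia. The conditions overlapped in both lines, with log2 fold changes of 0.10 (SE 0.15, adjusted p = 0.692 by edgeR) in PC3 and -0.02 (SE 0.073, adjusted p = 0.904) in HCT116. TSC2 (chr16:2097968-2139492, plus strand), the subunit with the GTPase-activating domain, lay between 66.6 and 70.8 CPM in normoxic PC3, between 62.8 and 69.6 CPM in hypoxic PC3, between 43.0 and 46.3 CPM in normoxic HCT116 and between 40.4 and 45.2 CPM in hypoxic HCT116. Its log2 fold change was -0.06 (SE 0.062) in PC3 and -0.07 (SE 0.065) in HCT116, past the threshold in neither. An exon of PKD1 on the opposite strand overlaps 784 bases of the TSC2 transcript, and the strand setting of the counting is not given in the sources used here.

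Between the lines TSC2 differed and TSC1 did not pass the test. TSC2 was 1.54-fold higher in PC3 than in HCT116 in normoxia and 1.56-fold higher in hypoxia (log2 differences 0.62 and 0.64, edgeR adjusted p = 2.28e-07 and 1.55e-07), and the lines did not overlap. TSC1 differed by -0.03 and 0.10, and without hypoxic PC3 replicate 4 the hypoxic difference was 0.21 (edgeR adjusted p = 0.0474). TSC1 made up 22.5% ± 1.47 of the pair per transcript length in normoxic PC3 and 24.4% ± 3.61 in hypoxic PC3 (SD, n = 4, exact permutation p = 0.314), and 31.4% ± 1.23 and 32.2% ± 1.54 in HCT116 (SD, n = 3, exact permutation p = 0.60).

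RHEB (chr7:151163098-151217206, minus strand), the switch that the TSC complex turns off, stood at 192, 174, 184 and 153 CPM in normoxic PC3 and at 219, 192, 197 and 188 CPM in hypoxic PC3. Each hypoxic PC3 library exceeded the normoxic one with its number, although the conditions overlapped. The log2 fold change was 0.19 (SE 0.094, edgeR adjusted p = 0.230), and with the block 0.19 (SE 0.052, edgeR adjusted p = 0.0354). In HCT116 the values were 134, 135 and 180 CPM in normoxia and 146, 140 and 143 CPM in hypoxia, with a log2 fold change of -0.05 (SE 0.11). Normoxic HCT116 replicate 3 was the highest library of that line. RHEB was higher in PC3 than in HCT116 in hypoxia by 0.48 (edgeR adjusted p = 0.000618). In normoxia the difference of 0.23 missed the threshold (edgeR adjusted p = 0.0529), and without HCT116 normoxic replicate 3 it was 0.38 (adjusted p = 0.00192 by edgeR).

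DEPTOR and SESN3, the brakes on the kinase and on the Rag arm, stood at 6.87 CPM or less in every library, and neither passed the test of hypoxia in either line. DEPTOR was at 3.95, 5.02, 5.58 and 6.87 CPM in normoxic PC3 and at 3.91, 4.98, 5.09 and 5.99 CPM in hypoxic PC3 (log2 fold change -0.10, SE 0.18). In HCT116 it was at 1.97, 1.98 and 1.21 CPM and at 1.68, 2.08 and 1.84 CPM (0.13, SE 0.19). The conditions overlapped in both lines, and the lines did not. DEPTOR was 3.11-fold higher in PC3 than in HCT116 in normoxia and 2.67-fold higher in hypoxia (log2 differences 1.64 and 1.42, edgeR adjusted p = 4.32e-06 and 1.96e-05). An exon of an antisense RNA overlaps 247 bases of the DEPTOR transcript.

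SESN3 (chr11:94898677-94965705, minus strand) had the reverse order of the lines. It was at 0.972, 1.19, 1.15 and 1.39 CPM in normoxic PC3 and at 1.37, 1.63, 1.34 and 1.40 CPM in hypoxic PC3 (log2 fold change 0.29, SE 0.16, edgeR adjusted p = 0.261). In HCT116 it was at 2.63, 3.27 and 2.28 CPM in normoxia and at 2.11, 3.09 and 2.75 CPM in hypoxia (-0.03, SE 0.17). All HCT116 libraries lay above all PC3 libraries. The difference, PC3 less HCT116, was -1.21 in normoxia and -0.88 in hypoxia (edgeR adjusted p = 1.41e-05 and 0.000328).

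RRAGD (chr6:90074335-90121992, minus strand) was the other member that rose in HCT116 without overlap of the conditions. In HCT116 it stood at 19.9, 21.0 and 20.0 CPM in normoxia and at 34.0, 36.2 and 33.0 CPM in hypoxia, a rise of 0.78 on the log2 scale (SE 0.066, 1.71-fold, edgeR adjusted p = 1.47e-05). The ratio of hypoxic to normoxic CPM was 1.71, 1.72 and 1.65 for the replicate numbers. In PC3 it stood at 6.24, 3.59, 4.23 and 3.66 CPM in normoxia and at 7.08, 5.89, 5.76 and 6.23 CPM in hypoxia. Normoxic replicate 1 was the only normoxic PC3 library within the hypoxic range. The PC3 change was 0.50 (SE 0.19, edgeR adjusted p = 0.122), and it passed the threshold with the block (0.53, SE 0.11, adjusted p = 0.0153 by edgeR) and without normoxic replicate 1 (0.72, edgeR adjusted p = 0.0111). The changes of the lines differed by -0.27 (SE 0.21, adjusted p = 0.604), which was not past the threshold.

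RRAGC (chr1:39303870-39325444, minus strand), which takes the same place in the Rag pair, was at 52.4, 41.1, 41.1 and 42.6 CPM in normoxic PC3 and at 57.4, 44.1, 40.3 and 50.9 CPM in hypoxic PC3. In HCT116 it was at 26.8, 28.2 and 23.2 CPM in normoxia and at 24.7, 25.2 and 24.6 CPM in hypoxia. Its log2 fold changes were 0.13 (SE 0.13) and -0.05 (SE 0.076), neither past the threshold, and the conditions overlapped. Between the lines the 2 genes went opposite ways. RRAGC was higher in PC3 by 0.77 in normoxia and 0.96 in hypoxia (edgeR adjusted p = 2.38e-05 and 2.33e-06), while RRAGD was lower in PC3, with differences of -2.20 and -2.46 (edgeR adjusted p = 2.19e-09 and 5.74e-10). A non-coding RNA on the same strand overlaps 1183 bases of the RRAGC transcript.

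Per transcript length, RRAGD was a small part of the pair in PC3 and a large part in HCT116. Its share was 5.11% ± 0.761 in normoxic and 6.63% ± 0.456 in hypoxic PC3 (SD, n = 4), and every hypoxic library, from 6.25% upwards, lay above every normoxic library, up to 6.10%. The exact two-sided permutation test gave p = 0.0286, the smallest that 4 against 4 libraries can give, and 0.143 after adjustment over the 5 tests. In HCT116 the share was 29.9% ± 1.78 in normoxia and 43.0% ± 0.837 in hypoxia (SD, n = 3), again without overlap, with exact permutation p = 0.10 and adjusted p = 0.167. This design of 3 against 3 cannot go below 0.10.

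**Figure D2:**
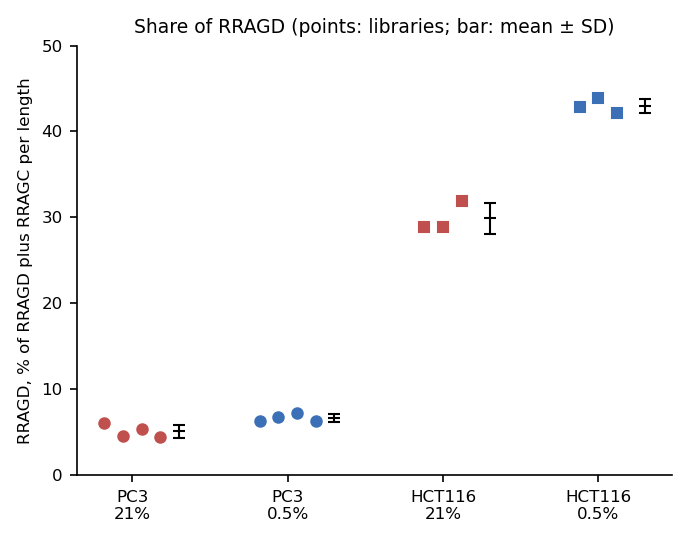
Share of RRAGD in the counts per transcript length of RRAGD plus RRAGC (vertical axis, percent) in each library, with the mean ± SD of each group beside its points. The share is 4.47% to 7.21% in PC3 and 28.8% to 43.9% in HCT116, and within each line the hypoxic libraries sit above the normoxic ones.

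FNIP1 (chr5:130977407-131132710, minus strand) stood at 38.0, 30.8, 28.5 and 30.4 CPM in normoxic PC3 and at 48.5, 41.7, 35.7 and 33.1 CPM in hypoxic PC3. Each hypoxic library exceeded the normoxic one of its number, and normoxic replicate 1 lay within the hypoxic range. The log2 fold change was 0.32 (SE 0.14, edgeR adjusted p = 0.168), and 0.32 (SE 0.059, edgeR adjusted p = 0.00933) with the block. In HCT116 the values were 25.7, 30.8 and 23.9 CPM in normoxia and 23.5, 26.3 and 23.0 CPM in hypoxia, and each hypoxic library was below its number's normoxic one (-0.13, SE 0.095, edgeR adjusted p = 0.351). The lines' changes differed by 0.46 (SE 0.19, edgeR adjusted p = 0.232), and with the replicate number as a block within each line by 0.45 (SE 0.096, edgeR adjusted p = 0.0151). FNIP1 was higher in PC3 than in HCT116 by 0.71 in hypoxia (edgeR adjusted p = 0.000163). In normoxia the difference was 0.25 (adjusted p = 0.0938), and 0.36 without HCT116 normoxic replicate 2 (adjusted p = 0.0359 by edgeR). A gene on the same strand shares 281 exonic bases with FNIP1, so reads there are uncertain.

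**Figure D3:**
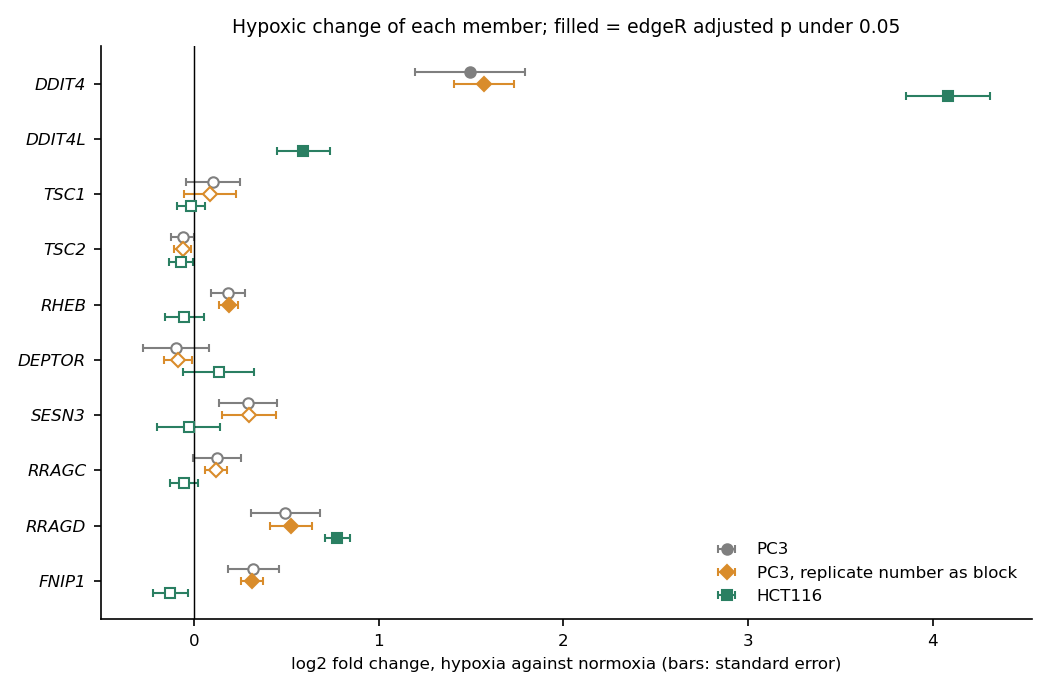
Log2 fold change of each member, hypoxia against normoxia (horizontal axis), with its standard error in PC3, in PC3 with the replicate number as a block, and in HCT116. Filled points passed the threshold: DDIT4 in all 3 fits, DDIT4L and RRAGD in HCT116, and RHEB, RRAGD and FNIP1 in PC3 with the block.

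Across the lines most members differed. In normoxia 3 members (TSC2, DEPTOR and RRAGC) were higher in PC3 and 4 (DDIT4, DDIT4L, SESN3 and RRAGD) were lower, beside 42.4% and 38.9% of all 15493 genes tested. In hypoxia 5 were higher, with RHEB and FNIP1 added, and the same 4 were lower, beside 41.8% and 39% of all genes. The members are thus read against a background in which most genes differ.

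Divided by transcript length, which allows genes to be compared, RHEB was the most abundant member in both conditions of PC3 and in normoxic HCT116, at 85.9 ± 8.30, 97.4 ± 6.84 and 73.2 ± 12.7 CPM per kilobase (SD). In hypoxic HCT116 it was passed by DDIT4, at 304 ± 81.9 against 69.9 ± 1.59 CPM per kilobase, and their libraries did not overlap. DDIT4 ranked 4 in normoxic PC3, at 8.24 ± 3.80 CPM per kilobase, where its range overlapped those of TSC2 above it and FNIP1 below it. In hypoxic PC3 it ranked 2, at 23.2 ± 5.35, and overlapped RRAGC at 18.0 ± 2.82. RRAGD ranked 8 in PC3, at 0.900 ± 0.252 and 1.27 ± 0.121 CPM per kilobase, and in HCT116 rose from 4.12 ± 0.122, level with FNIP1 at 4.08 ± 0.544, to 6.99 ± 0.325, level with TSC2 at 6.56 ± 0.419. SESN3 was the lowest member with counts in every group, between 0.123 and 0.285 CPM per kilobase by group mean.

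**Figure D4:**
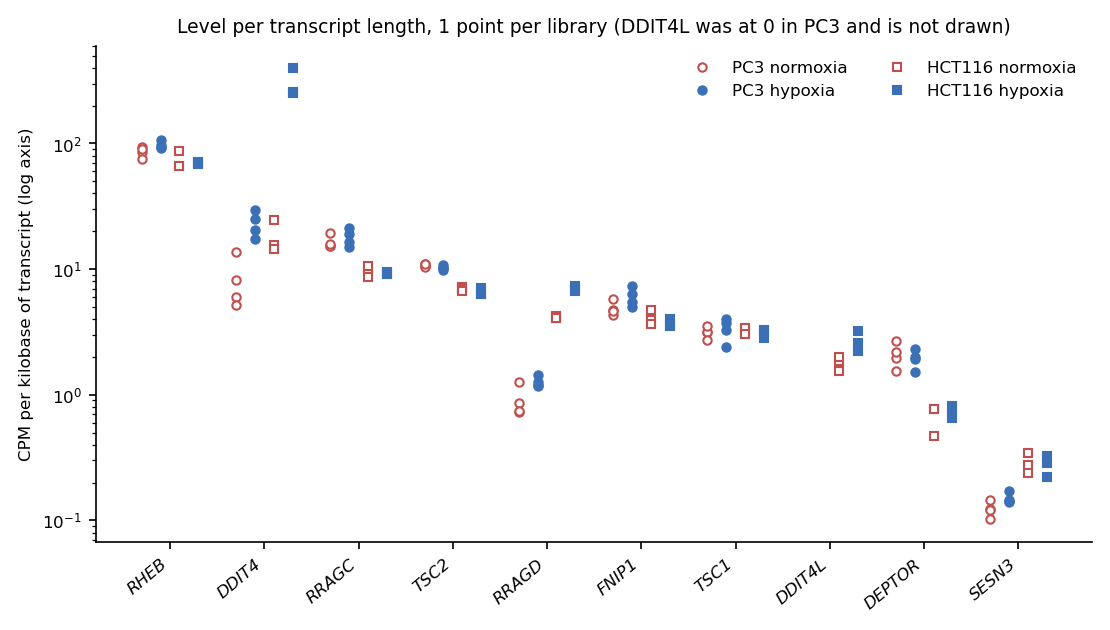
CPM per kilobase of transcript (log axis) of the members in every library, ordered by the mean in normoxic HCT116, with open points for normoxia, filled for hypoxia, circles for PC3 and squares for HCT116. DDIT4 in hypoxic HCT116, at 254 to 398, is the only case where a member lies above RHEB.

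The other genes of the pathway were taken from 18 lists of complexes and steps, with 97 genes besides the members in the files and 95 tested in each line. In PC3 8 were higher in hypoxia and 3 lower, and in HCT116 21 were higher and 10 lower, with median log2 fold changes of 0.06 and 0.03. The shares over the whole of each table were 6.03% and 5.29% for PC3 and 14.6% and 11.3% for HCT116. With the block the PC3 counts were 18 and 8, beside 14.9% and 13.6% of all genes. In the list of 4 Rag GTPases, RRAGA rose in both lines, by 0.61 (SE 0.11) in PC3 and 0.34 (SE 0.066) in HCT116, and RRAGB, its alternative in the pair, had log2 fold changes of -0.04 in each. Of the 3 genes of GATOR1, the complex that switches off RRAGA and RRAGB, 0 were called in either line by edgeR or DESeq2, and 0 had an unadjusted p under 0.05. TBC1D7, the last subunit of the TSC complex, had log2 fold changes of -0.12 in PC3 and -0.25 in HCT116, with adjusted p above the threshold by both tools. In HCT116 its unadjusted p by edgeR was under 0.05.

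Among 5 genes of GATOR2, the complex that opposes GATOR1, MIOS fell in both lines, by 0.26 (SE 0.067) in PC3 and 0.55 (SE 0.074) in HCT116, and SEH1L fell in HCT116 by 0.25 (SE 0.061). Of the 4 genes of KICSTOR, which anchors GATOR1, ITFG2 fell in PC3 by 0.51 (SE 0.081) and KPTN rose in HCT116 by 0.34 (SE 0.094). Of the 6 sestrins and amino acid sensors, C7orf60, the older symbol of the S-adenosylmethionine sensor SAMTOR, rose by 0.48 (SE 0.11) in PC3 and 1.02 (SE 0.12) in HCT116, and SESN1 rose in HCT116 by 0.29 (SE 0.098). GATSL2, an arginine sensor with a near-identical copy, fell in HCT116 from 0.440 to 0.121 CPM, and its counts are uncertain. Of the 5 mTORC1 subunits, RPTOR, the scaffold of the complex, rose in PC3 by 0.21 (SE 0.056), and in HCT116 its log2 fold change was 0.23 (SE 0.083, edgeR adjusted p = 0.0665). With the block the HCT116 change of RPTOR passed the threshold (0.22, SE 0.070, edgeR adjusted p = 0.0398). Of the 6 genes of Ragulator, which anchors the Rag GTPases, and SLC38A9, 0 were called in either line by edgeR, with or without the block, or by DESeq2, and 0 had an unadjusted p under 0.05. Of the 4 mTORC2 subunits edgeR called 0 in either line, while in PC3 1 had an unadjusted p under 0.05, and DESeq2 and the block each called 1, with the block RICTOR (0.34, SE 0.080). Of the 3 genes of the folliculin complex edgeR and DESeq2 called 0, 1 in each line had an unadjusted p under 0.05, and the block called 2 in PC3, FNIP1 and FNIP2 (0.20, SE 0.058). Beside these counts, the block called 14.9% of all PC3 genes higher and 13.6% lower, and DESeq2 called 2601 of them.

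Upstream, IRS2, an adaptor of the insulin receptor, rose in both lines, by 1.28 (SE 0.20) in PC3 and 0.65 (SE 0.077) in HCT116. In the list of 13 genes of insulin receptor and PI3K signalling it was the only one called in PC3, where 6.03% of all genes were higher. In HCT116, where 14.6% of all genes were higher, 5 of the list rose, with IGF1R at 0.77 (SE 0.075) and INSR at 0.44 (SE 0.080). Of 8 genes of AMPK and LKB1, which restrain mTORC1 when energy is low, 0 were called in PC3 by edgeR (3 at an unadjusted p under 0.05, 2 by DESeq2 and 4 with the block). Those 4 were PRKAA2, PRKAG2 and STK11, higher by 0.27 (SE 0.050), 0.29 (SE 0.050) and 0.17 (SE 0.043), and PRKAB1, which fell by 0.28 (SE 0.051). Over all 14309 PC3 genes tested the block called 14.9% higher and 13.6% lower, and DESeq2 called 2601 genes. In HCT116 2 of the 8 rose and 4 fell, beside 14.6% and 11.3% of all genes. Among them PRKAA2, a catalytic subunit, rose by 0.58 (SE 0.14), and PRKAA1 and PRKAB2 fell by 0.37 (SE 0.065) and 0.57 (SE 0.072). Of the 8, 2 changed differently in the lines, beside 2.32% of all 15493 genes tested. They were PRKAB2 with an interaction of 0.44 (SE 0.11, edgeR adjusted p = 0.0453) and PRKAG2 with an interaction of 0.64 (SE 0.12, edgeR adjusted p = 0.0105). PRKAG2, a regulatory subunit, fell in HCT116 by 0.33 (SE 0.075), and in PC3 its log2 fold change was 0.30 (SE 0.091, edgeR adjusted p = 0.0652 without the block). RICTOR, FNIP2, PRKAG2, PRKAB1 and STK11 were named after their values were seen.

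Downstream, of 14 substrates and effectors, GRB10, an adaptor that mTORC1 phosphorylates, rose in PC3 by 0.54 (SE 0.097). It was the only 1 of the 14 called in PC3 without the block, and with the block 3 were called. The block called 14.9% of all PC3 genes higher and 13.6% lower. In HCT116 PDCD4, an inhibitor of translation, rose by 0.71 (SE 0.15), EIF4EBP3 by 0.53 (SE 0.12), and EIF4E, the cap-binding factor, fell by 0.33 (SE 0.075). Of 12 lysosomal targets of TFEB, CTSB rose in both lines, by 0.36 (SE 0.095) and 0.31 (SE 0.069). In PC3 it was the only target called without the block, and with the block 3 were called. In HCT116 HEXA rose by 0.33 (SE 0.079) and MCOLN1 fell by 0.34 (SE 0.079).

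**Figure D5:**
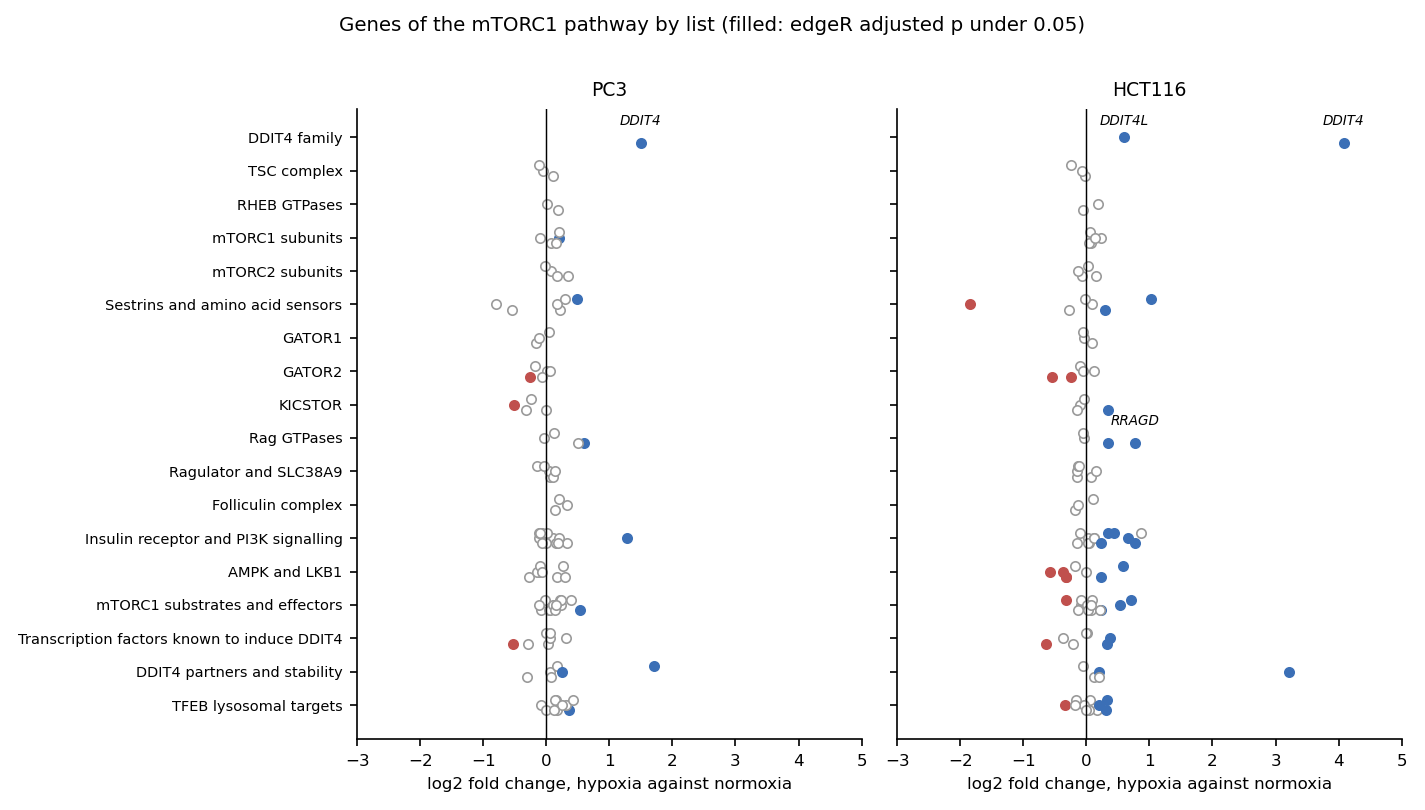
Log2 fold change, hypoxia against normoxia (horizontal axes), of the genes of each pathway list in PC3 (left) and HCT116 (right), with filled points past the threshold, blue for higher and red for lower. Most points are open and lie near 0, and DDIT4 in HCT116 at 4.08 and BNIP3 at 3.22 lie farthest to the right.

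Of the 7 transcription factors listed as inducers of DDIT4, HIF1A fell in both lines at the level of RNA, by 0.53 (SE 0.087) in PC3 and 0.63 (SE 0.063) in HCT116. EPAS1, which encodes HIF-2α, rose in HCT116 by 0.37 (SE 0.095), and in PC3 its log2 fold change was 0.31 (SE 0.13, edgeR adjusted p = 0.156), or 0.30 with the block (SE 0.054, edgeR adjusted p = 0.00821). Of the genes listed as partners of DDIT4 or as acting on its stability, BNIP3, which binds RHEB and is a known HIF target, rose by 1.71 (SE 0.13) in PC3 and 3.22 (SE 0.074) in HCT116. As for DDIT4, its change was smaller in PC3, with an interaction of -1.50 (SE 0.17, edgeR adjusted p = 0.000142). Of the 96 pathway genes tested besides the members, BNIP3 was the only 1 called with a negative interaction. The interaction was called positive for 3 others, beside 2.32% of all 15493 genes called in either direction. GSK3B rose in PC3 by 0.25 (SE 0.068). DDB1 rose in HCT116 by 0.19 (SE 0.063, edgeR adjusted p = 0.0432), and with the block it missed the threshold (0.20, SE 0.072, edgeR adjusted p = 0.0716).

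Over the 14 libraries the genes whose log2 CPM followed DDIT4 most closely, of 13089 compared, were ADPRHL2, C7orf60, CDKN1C, EGLN3 and RLF, with Pearson r of 0.972, 0.966, 0.965, 0.957 and 0.957. Since the libraries share line and condition, these values describe the pattern over 4 groups more than 14 independent points. Within PC3 alone r was between 0.831 (C7orf60) and 0.947 (CDKN1C), and within HCT116 between 0.961 (ADPRHL2) and 0.995 (RLF). EGLN3, a HIF prolyl hydroxylase, rose by 1.88 (SE 0.33) in PC3 and by 2.62 (SE 0.075) in HCT116.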

How the data were processed

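Per the labels and the study's methods, ERCC spike-in was added to the RNA and polyadenylated RNA was sequenced. The authors counted the spike-in reads to scale each sample, removed them and aligned the others to GRCh37 with HISAT2 2.05. They deposited, for each of the 14 libraries, HTSeq 0.5.4p3 counts per RefSeq gene symbol, without normalisation. The scaling used here does not draw on the spike-in, so its values can differ from those of the study. The RefSeq release and the strand setting of the counting are not given in the sources used here, so genes that overlap others are uncertain.

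The counts were tested with edgeR 4.0.16 in R 4.3.3 (filterByExpr, TMM, quasi-likelihood test, two-sided, Benjamini-Hochberg over all genes tested, threshold 0.05), within each line, and over all 14 libraries for the difference between the lines. CPM come from one TMM scaling of the 14 libraries. Transcript lengths and gene positions are those of GENCODE on GRCh37. The lengths of the members are those of MANE Select transcripts, except for DDIT4. Its length of 1748 bases comes from a transcript without that tag, so its levels per kilobase depend on that choice. DESeq2 1.42.0, other scalings, filters and samples were alternatives. Tests without the block were checked on simulated counts of independent libraries, which lack the shared deviations of same-numbered PC3 libraries. The fit with the block was not checked in this way. The members, lists and tests were chosen with earlier results of these data known. Other genes are named where they passed the threshold, at most 3 per list and line, and some genes that this rule covers are not reported here. Of 113 list symbols, 107 were in the files, the others being second symbols of the same genes.

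In PC3 deviations from the condition means of same-numbered libraries correlated at 0.675, 0.267, 0.140 and 0.282 over 14309 genes, for replicates 1 to 4. Correlations of differently numbered PC3 libraries lay between -0.420 and 0.198, a range that holds the value of replicate 3. Pairing by number was thus clearest for replicate 1. Any 2 replicates differed by more than sampling noise.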

Additional observations from a re-analysis of the deposited data

Results flagged for a closer look

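In PC3, RRAGC in normoxic replicate 1 stood at 52.4 CPM, far from the other 3 normoxic libraries at 41.1 to 42.6 CPM, and the gap was 0.866 of the group's range. Of 18 groups of 4 PC3 libraries examined in this way, 1 was found, where chance gives about 1 in 20, or 0.9 groups. The hypoxic rise of DDIT4 was smaller in PC3 than in HCT116 by a tested log2 difference of -2.57 (SE 0.42, edgeR adjusted p = 0.00476). Over the alternatives the difference lay between -2.84 and -2.22 and the adjusted p between 2.30e-05 and 0.0237.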

How the results depend on the processing

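The 3 members called in HCT116 and the difference of DDIT4 between the lines were called under every alternative run, except DDIT4L in one fit over all 14 libraries. In PC3 the number of members called was 4 with the replicate block, 2 in one fit over all 14 libraries and 2 without replicate 1 of both conditions (chosen after seeing the data), and 0 to 2 when single libraries were left out. The log2 rise of DDIT4 in PC3 was then between 1.33 and 1.86, and without normoxic replicate 2 its edgeR adjusted p was 0.0534. Leaving out single libraries gave 553 to 2085 genes called in PC3 (1620 with all), and 177 to 717 for the difference between the lines (359 with all). DESeq2 called 2601 and 974 genes, the replicate block 4074 and 1306, and one fit over all libraries 2465 in PC3 and 1733 in HCT116 (3658 in the line's own fit). With the block, 2 members differed between the lines, DDIT4 and FNIP1. The cause of these changes was not tested.

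In HCT116 the correlations of same-numbered libraries were lower than in PC3 (0.0908, 0.138 and 0.0429). Those of differently numbered HCT116 libraries lay between -0.0939 and 0.00209, so pairing by number was weak but not absent. The block left the number of HCT116 members called at 3. No paired analysis was possible between the lines within a condition because the replicate numbers belong to one line each. Total-count scaling shifted the median change over the PC3 genes by -0.11 (log2), and calls that were higher made up 24.5% there, 39.4% with upper-quartile scaling and 53.3% with TMM. In HCT116 total-count scaling gave 29% against 56.3%, and for the difference between the lines upper-quartile scaling gave 29.3% against 43.5%. Upper-quartile scaling also moved the median of PC3 against HCT116 in hypoxia by -0.11. Depth limits DDIT4L in PC3, where 0 counts allow 3.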

Other observations

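Several genes around the members differed greatly between the lines in normoxia, and these genes were chosen after their values were seen. TXNIP, a partner of DDIT4, stood at 248 CPM in PC3 and at 0.00696 CPM in HCT116. The HCT116 value lies under the level of 3 counts in these libraries, 0.0201 to 0.0224 CPM. Whether it comes from the line or from the counting was not tested. EPAS1 stood at 274 CPM in PC3 and 22.4 CPM in HCT116, and HIF1A at 666 and 213 CPM.

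The transcription factors TFE3 and MITF, which mTORC1 holds in the cytoplasm through the Rag GTPases, stood at 93.2 and 39.7 CPM in PC3 and at 14.4 and 1.58 CPM in HCT116, whereas TFEB stood at 1.76 CPM in PC3 and 3.65 CPM in HCT116. HEXA, a lysosomal hydrolase used by most cells, is listed with 0 counts in every PC3 library and stood at 28.5 CPM in normoxic HCT116. Whether this 0 comes from the line or from the counting was not tested. ATF4, which is known to induce DDIT4 and the sestrins, stood at 145 CPM in normoxic PC3 and 433 CPM in normoxic HCT116, with hypoxic log2 fold changes of 0.02 and -0.21 that did not pass the test.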
